A study of Homo sapiens with 40 samples.

Results

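To describe the chromatin of nuclear receptor genes in senescent beta cells, H3K27ac and CTCF peaks were examined at 38 of 20007 protein-coding genes. The 38 genes were taken by name and cover 9 families. No measured value served as a criterion, but the genes were chosen with earlier results of these data known. A peak was counted for a gene when it lay within 2 kb of one of the gene's start sites in GENCODE release 44 (a promoter peak), inside the gene (a gene body peak), or outside it with this gene as the nearest within 100 kb (a nearest peak). This gave 165 of 51489 H3K27ac peaks and 157 of 51457 CTCF peaks. The nearest gene is an assignment by distance, and no contact between a peak and its gene was measured.

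Nuclear receptors are transcription factors, most of which are switched by small fat-soluble ligands such as steroids, retinoids, thyroid hormone, vitamin D, fatty acids and oxysterols. They bind DNA through a conserved zinc finger domain, often as dimers on repeats of a short half-site. Without ligand many of them recruit corepressors that remove acetyl groups from histones, and with ligand they recruit coactivators that add them. In pancreatic beta cells members of the family are known to take part in insulin secretion, lipid handling and the maturation of the cells. Acetylation of histone H3 at lysine 27 (H3K27ac) is found at enhancers and promoters in use, and CTCF is a zinc finger protein that anchors chromatin loops.

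The cells were EndoC-βH3, a human pancreatic beta-cell line that is labelled wild type and carries a transgene for its own growth that can be cut out by a tamoxifen-activated recombinase. The senescent libraries came from cells treated for 3 weeks with 4-hydroxytamoxifen (4-OHT), and the non-senescent libraries came from control cells of the same line. H3K27ac and CTCF were each measured by ChIP-seq in 3 senescent and 3 non-senescent libraries, each with its own input. The labels and the methods of the study give the concentration of 4-OHT in different units, so it is not stated here. The compound is also a ligand of the estrogen receptors ESR1 and ESR2, for which it acts as an antagonist or a partial agonist depending on the tissue, and it was given to the senescent cells alone. The action of the ligand, the removal of the transgene and senescence itself therefore cannot be told apart in any value below. Nothing in the labels says that the 3 libraries of a state came from separate cultures, so the errors may measure technical spread.

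The deposited tables give for each peak the mean normalized read count over all libraries, the log2 fold change (senescent over non-senescent) with its standard error (SE), and p-values from a DESeq2 comparison of 3 and 3 libraries. They hold no value for a single library, so the level in each state is given here as implied by the mean and the fold change for equal groups. A peak was called gained or lost when its fold change was above 1.5 and its adjusted p was under 0.05 for H3K27ac or under 0.2 for CTCF. The median standard error over the peaks of nuclear receptor genes was 0.18 for H3K27ac and 0.29 for CTCF, which makes changes of CTCF the less precise. The identity of the cells was checked at the promoters of 6 beta cell markers, all of which had an H3K27ac peak, at 64.5 to 509.6 normalized reads per kb. INS, the insulin gene, stood at 230.4 reads per kb with a log2 fold change of 0.34 ± 0.059 (SE), under the fold threshold. Of the other 5, IAPP, which encodes the peptide amylin that is secreted with insulin, was called gained (log2 0.93 ± 0.15, adjusted p = 4.3e-09), and PCSK1, which encodes a protease that processes proinsulin, was called lost (log2 -1.41 ± 0.085, adjusted p = 8.2e-59). The CTCF peak at the PCSK1 promoter was lost too (log2 -0.93 ± 0.27, adjusted p = 0.025). Among 7 markers of other pancreatic or blood cells, 3 had a promoter peak, namely CPA1 of acinar cells at 298.4, KRT19 of duct cells at 122.3 and SST of delta cells at 50.3 reads per kb. KRT19 and SST were called lost, and GCG, PPY, PRSS1 and PTPRC had no promoter peak. Whether cells of another kind had a part in the differences below was not tested.

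H3K27ac changed at nuclear receptor genes in both directions and about as often as elsewhere. Of the 165 peaks, 20 were gained, 19 were lost and 126 were not called. Over all H3K27ac peaks 9.47% were gained and 13.1% were lost, against 12.1% and 11.5% of the peaks of these genes, so the shares were close to the background. The median log2 fold change was 0.069 over these peaks and 0.0075 over all peaks. At least 1 called peak was found at 22 genes. Of these, 10 had gained peaks alone, 8 had lost peaks alone, and NR4A2, NR5A2, PPARD and RXRA had both. A further 13 genes had peaks and none called, and NR5A1, PPARG and RARB had no H3K27ac peak assigned to them. These gene counts depend on the number of peaks per gene, which ran from 1 to 30. The share of all protein-coding genes with a called peak was not counted, so they have no background here.

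**Figure D1:**
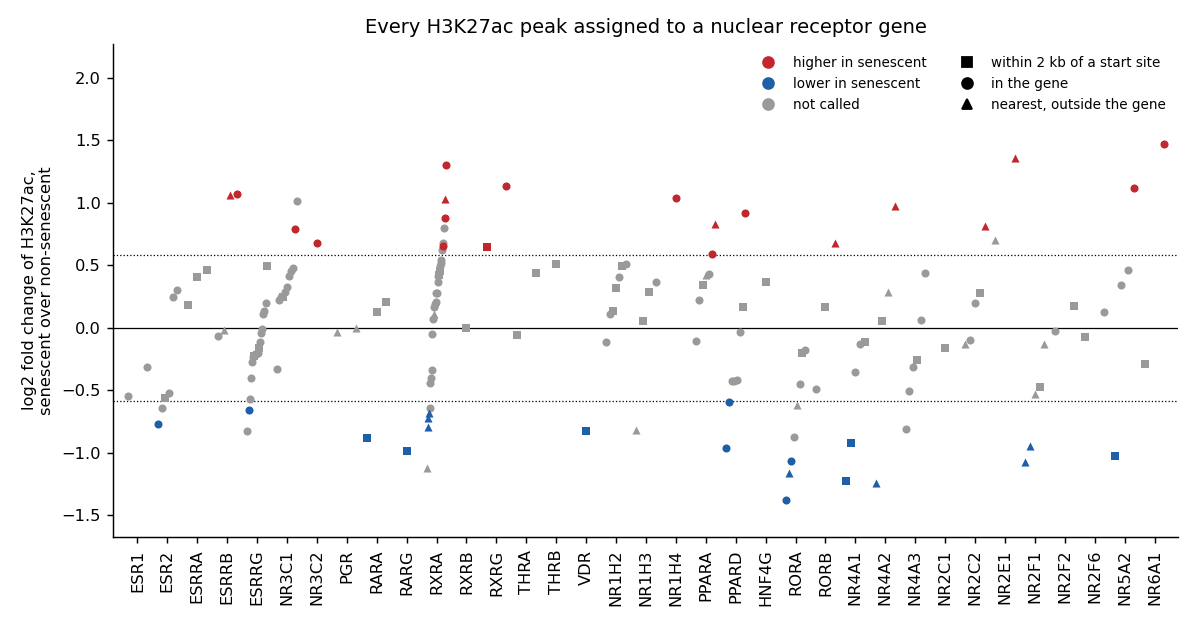
Log2 fold change of H3K27ac (senescent over non-senescent) at each of the 165 peaks, by gene on the x axis, where colour marks the call and shape marks the position of the peak. Dotted lines mark a fold change of 1.5, and the 20 gained and 19 lost peaks are spread over 22 genes, with the 30 peaks of RXRA forming the tallest column.

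Few of these genes changed at their promoter. A gene was represented by its promoter peak with the highest mean count, which 29 of the 38 genes had. RXRG was gained, VDR, RARG and NR5A2 were lost, and 25 genes were not called. Over all 13059 protein-coding genes with such a peak 3.15% were gained and 8.94% were lost, so 1 and 3 of 29 were near the background. The median log2 fold change was 0.054 at these promoters and 0.038 over all genes. A further 7 genes passed the adjusted p on the higher side and 5 on the lower side with a fold change under 1.5.

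RXRG encodes retinoid X receptor gamma, a dimer partner of many other members of the family, and its promoter is shown because it was the only one gained. The 250 bases before its RefSeq start (GRCh38.p14, minus strand, chr1:165445127-165445376) lie inside the gained peak at chr1:165444357-165445959. Capitals mark a nuclear receptor half-site (AGGTCA on the opposite strand) that begins 231 bases before the start and a GC box (GGGCGG) that begins 220 bases before it.

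RXRG promoter: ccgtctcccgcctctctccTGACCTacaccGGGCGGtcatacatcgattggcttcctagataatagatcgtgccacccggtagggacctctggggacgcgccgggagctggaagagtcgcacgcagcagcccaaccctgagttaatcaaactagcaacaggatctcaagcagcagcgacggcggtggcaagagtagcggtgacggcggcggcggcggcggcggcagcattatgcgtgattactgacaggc

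The stretch holds 62% G and C against a median of 58% over RefSeq promoters. The half-site occurred, on either strand, in 14 of 86 promoters of 34 nuclear receptor genes (16.3%) and in 12.1% of all 35116 RefSeq promoters of the same length. VDR, HNF4G, NR4A2 and NR2F6 had no entry. A match is a run of letters and does not show that a receptor binds there.

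At the RXRG promoter the implied level was 123.5 normalized reads in non-senescent and 193.6 in senescent cells, a log2 fold change of 0.65 ± 0.16 (SE, adjusted p = 2.9e-04). The interval of the change, 0.33 to 0.96, reaches below the fold threshold. The other H3K27ac peak of RXRG, in an intron 10.9 kb downstream at chr1:165432591-165435826, went from 242.9 to 531.2 reads (log2 1.13 ± 0.11, adjusted p = 8.2e-22). Both peaks of this gene were therefore gained, and the intronic peak overlapped an enhancer that the deposited lists hold for senescent cells alone.

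VDR, the vitamin D receptor, had a single H3K27ac peak, which lay over its start site at chr12:47904657-47906218. Its implied level went from 382.2 reads in non-senescent to 215.4 in senescent cells (log2 -0.83 ± 0.12, adjusted p = 3.0e-10). RARG, the gamma receptor of retinoic acid, had a single peak as well, at chr12:53220829-53222549 beside an internal start site 10.5 kb downstream of the canonical one, and went from 160.4 to 81.0 reads (log2 -0.99 ± 0.19, adjusted p = 1.4e-06). NR5A2, known as LRH-1 and a regulator of pancreatic and bile acid genes, was lost at a weak peak that went from 33.3 to 16.4 reads (log2 -1.02 ± 0.41, adjusted p = 0.033). With a mean of 24.9 reads and an interval of -1.82 to -0.22 the loss at NR5A2 was the least certain of these.

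The choice of promoter peak bore on the count. With the peak closest to the canonical start in place of the strongest, 5 genes were lost, since NR4A1 and RARA joined VDR, RARG and NR5A2. NR4A1 encodes an orphan receptor of the immediate early class that is induced within minutes of a stimulus. It had 3 promoter peaks, and the strongest, which also reaches TAMALIN, was not called (log2 -0.12 ± 0.066). The peak over its canonical start at chr12:52049884-52052577 went from 561.1 to 239.8 reads (log2 -1.23 ± 0.11, adjusted p = 8.4e-27). The peak 14.4 kb upstream of that start at chr12:52036165-52037914 went from 157.3 to 83.2 reads (log2 -0.92 ± 0.20, adjusted p = 3.3e-05). The bases before the RefSeq start inside this upstream peak (GRCh38.p14, plus strand, chr12:52037465-52037714) are shown for comparison with RXRG, with the GC box in capitals.

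NR4A1 promoter: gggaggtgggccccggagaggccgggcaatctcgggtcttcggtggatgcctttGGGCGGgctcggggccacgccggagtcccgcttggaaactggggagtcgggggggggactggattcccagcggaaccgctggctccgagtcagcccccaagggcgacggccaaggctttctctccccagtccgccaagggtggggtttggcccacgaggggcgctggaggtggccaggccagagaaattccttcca

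It holds 69.6% G and C and no half-site. The GC box was found in 47.7% of the promoters of nuclear receptor genes and in 42.6% of all RefSeq promoters.

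**Figure D2:**
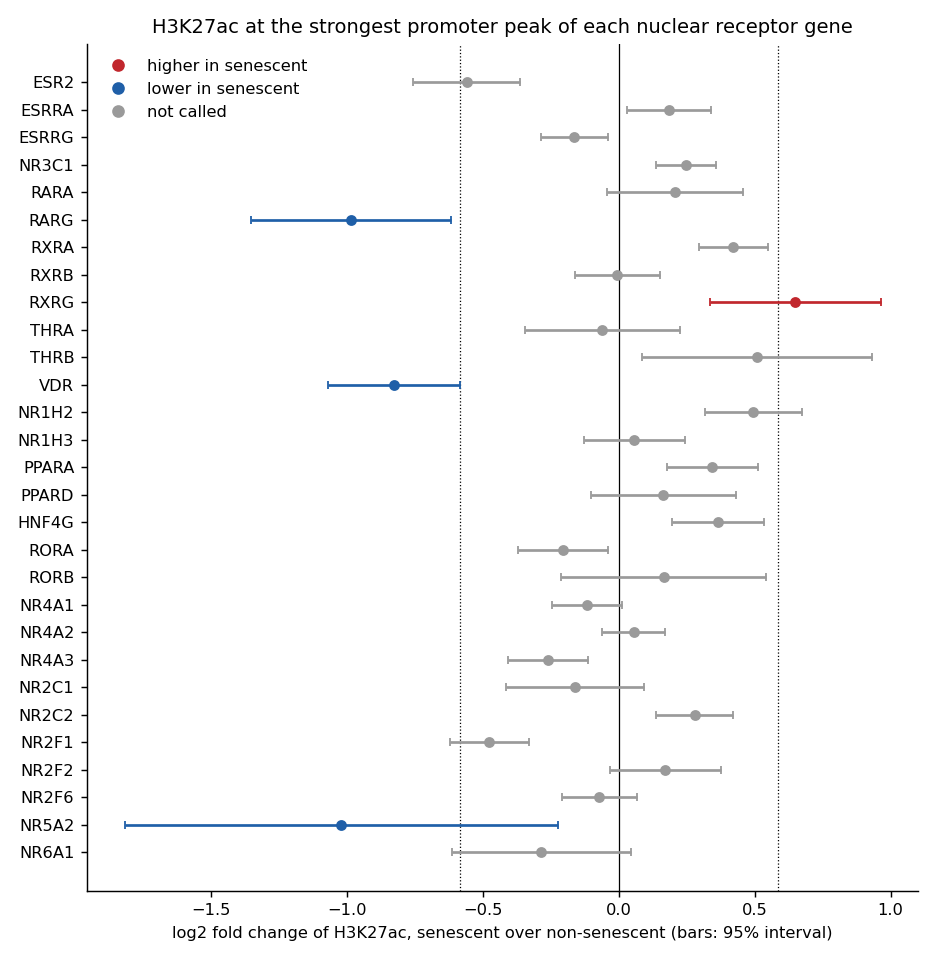
Log2 fold change of H3K27ac with its 95% interval at the strongest promoter peak of each of 29 nuclear receptor genes, ordered by family. Dotted lines mark a fold change of 1.5, and RXRG lies above them while VDR, RARG and NR5A2 lie below.

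Levels at promoters differed widely between members. The highest promoter was that of NR4A2, an orphan receptor of the NR4A family, at 500.0 normalized reads per kb of peak, above 97.4% of genes with a promoter peak. Its log2 fold change was 0.054 ± 0.060. The highest in the other families were NR2C2 (TR4) at 382.8, the glucocorticoid receptor gene NR3C1 at 376.5, the estrogen-related receptor gene ESRRA at 336.4, the oxysterol receptor gene NR1H2 (LXRβ) at 305.0, RORA at 237.1, the RXRB gene at 234.9, VDR at 191.4 and NR6A1 at 98.6 reads per kb. ESRRA and NR1H2 share their peaks with neighbouring genes, and RXRB shares its peak with SLC39A7. Only VDR among these was called, and NR5A2 stood lowest of all at 49.7 reads per kb.

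**Figure D3:**
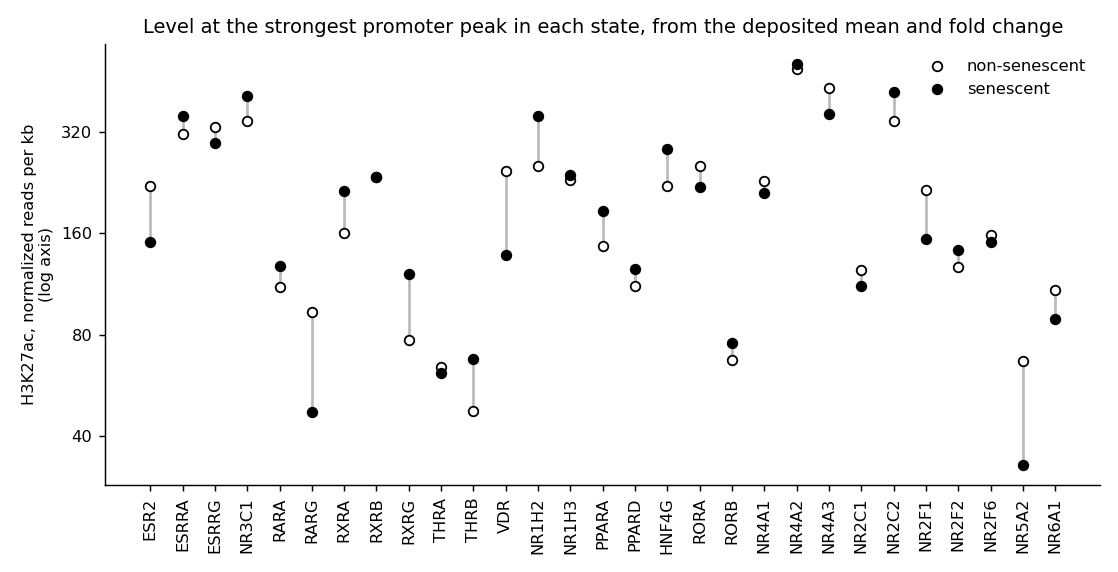
Implied H3K27ac level in non-senescent (open) and senescent (filled) cells at the strongest promoter peak of each gene, in normalized reads per kb on a log axis. NR4A2 is highest and NR5A2 lowest, and the gap between the states is widest at NR5A2, RARG, VDR and RXRG.

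Outside promoters 19 peaks were gained and 13 were lost of 123, against 11.1% gained and 13.3% lost among the 30474 peaks of all protein-coding genes outside promoters. Inside genes 12 of 96 were gained (12.5%) and 6 lost (6.25%), against 11.4% and 11.1% of the gene body peaks of all protein-coding genes. Of the 27 nearest peaks 7 were gained and 7 lost (25.9% each), against 10.1% and 19.7% of the nearest peaks of all protein-coding genes. These differences were not tested, since neighbouring peaks are not independent.

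The 3 strongest gains by adjusted p were at RXRG (above), ESRRB and RXRA. ESRRB, an orphan receptor related to the estrogen receptors that has no natural ligand known, gained a nearest peak 82.2 kb upstream at chr14:76292239-76295641, from 524.1 to 1094 reads (log2 1.06 ± 0.094, adjusted p = 1.6e-27), and an intronic peak (log2 1.07 ± 0.26, adjusted p = 1.9e-04). Its other 2 peaks were not called, and it had no promoter peak. NR2E1 (TLX), a repressor known from neural stem cells, gained a nearest peak 37.8 kb downstream at chr6:108202762-108204876, from 98.0 to 251.4 reads (log2 1.36 ± 0.16, adjusted p = 4.1e-15). NR4A2 gained a peak 49.6 kb upstream (log2 0.97 ± 0.13, adjusted p = 6.4e-13) and lost one 12.6 kb beyond its start on the downstream side (log2 -1.24 ± 0.17, adjusted p = 2.3e-11), while its promoter was not called. PPARA, a fatty acid sensor, gained a peak 79.2 kb upstream (log2 0.83 ± 0.15, adjusted p = 2.8e-07), RORB gained one 16.7 kb upstream (log2 0.68 ± 0.13, adjusted p = 7.2e-07), and NR6A1, a receptor of germ cells, gained an intronic one that went from 33.7 to 93.3 reads (log2 1.47 ± 0.29, adjusted p = 3.5e-06). Among these genes NR4A2 and RXRA had lost peaks as well.

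RXRA, retinoid X receptor alpha, held the most peaks, 30, and the most called ones, 4 gained and 3 lost. Over all H3K27ac peaks 9.47% were gained and 13.1% lost, so the calls at RXRA were near the background for 30 peaks. All 3 losses lay upstream of the start, where 5 peaks were found, and all 4 gains lay downstream, where 25 peaks were found. The strongest gain, 39.4 kb downstream in an intron at chr9:134362785-134368979, went from 588.9 to 1080 reads (log2 0.87 ± 0.088, adjusted p = 1.6e-21). The strongest loss, 38.6 kb upstream at chr9:134286466-134289219, went from 360.1 to 218.9 reads (log2 -0.72 ± 0.13, adjusted p = 4.4e-07), and the losses 67.6 and 61.3 kb upstream were of like size (log2 -0.79 ± 0.17 and -0.68 ± 0.15). Downstream 20 of the 25 peaks had a fold change above 0, and both promoter peaks passed the adjusted p under the fold threshold (log2 0.45 ± 0.059 and 0.42 ± 0.065). The difference between the sides was not tested, since neighbouring peaks of 1 gene are not independent.

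**Figure D4:**
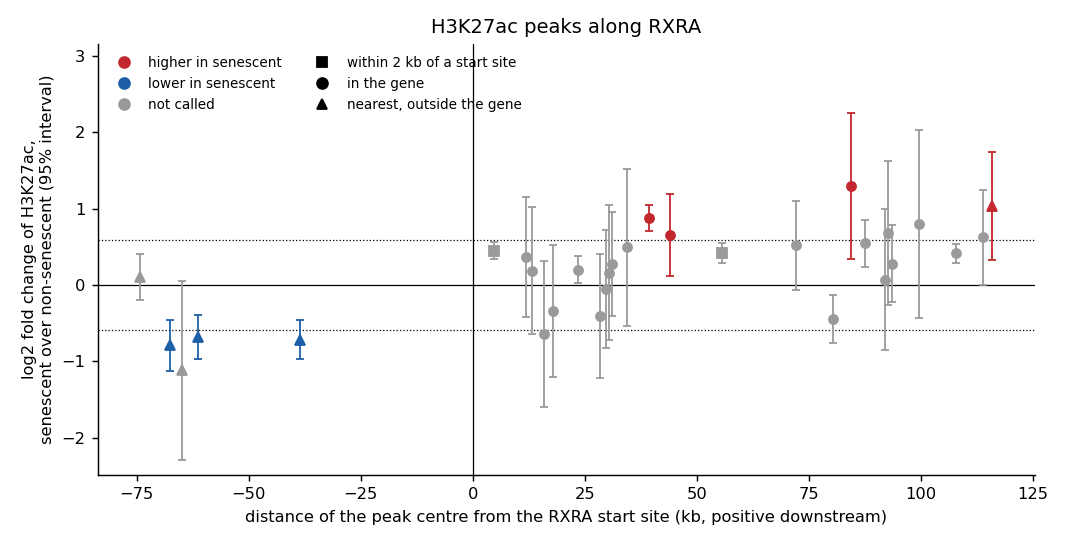
Log2 fold change of H3K27ac with its 95% interval at the 30 peaks of RXRA, by distance of the peak centre from the start site in kb. The 3 lost peaks lie upstream between -67.6 and -38.6 kb, and the 4 gained peaks lie downstream between 39.4 and 116 kb.

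RORA and PPARD had 3 called peaks of 8 each, against 22.6% called over all H3K27ac peaks. Differences in such small numbers were not tested. RORA, an orphan receptor that drives clock genes, had 8 peaks, all with a fold change below 0, of which 3 were lost. The clearest was 89.3 kb upstream at chr15:61317282-61319993 and went from 340.2 to 152.1 reads (log2 -1.16 ± 0.15, adjusted p = 3.5e-13). The other 2 were intronic and weaker, with means of 36.8 and 14.8 reads. PPARD, the delta receptor of fatty acids, gained an intronic peak 43.7 kb from its start (log2 0.92 ± 0.18, adjusted p = 3.9e-06) and lost others at 59.7 kb (log2 -0.60 ± 0.091, adjusted p = 8.5e-10) and 72.8 kb (log2 -0.96 ± 0.22, adjusted p = 9.2e-05). Peaks less than 20 kb apart in 1 gene were thus called in opposite directions.

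The remaining losses outside promoters named here were at NR2F1 and ESRRG. NR2F1, the repressor COUP-TF1, lost a peak 78.5 kb downstream that lies in FAM172A (log2 -1.07 ± 0.19, adjusted p = 1.1e-07) and a weak one, and all 5 of its peaks had values below 0. ESRRG, an orphan receptor that promotes oxidative metabolism in beta cells, had 18 peaks of which 1 was lost, in an intron (log2 -0.66 ± 0.13, adjusted p = 1.7e-06), and 14 had values below 0. NR3C1, the glucocorticoid receptor gene, had 10 of 11 peaks above 0 and 1 called gained (log2 0.79 ± 0.30, adjusted p = 0.022). Most of the peaks in these sign counts were not called. The counts were not tested, since neighbouring peaks of 1 gene are not independent.

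The half-site AGGTCA was counted on both strands in the central 1000 bases of every H3K27ac peak. It occurred in 15 of 20 gained, 8 of 19 lost and 40.5% of the uncalled peaks of nuclear receptor genes. Over all peaks the shares were 51.6%, 47.6% and 48.0%, so the spread among these few peaks was not seen at large, and it was not tested. The core of the estrogen response element, 2 half-sites facing each other (GGTCANNNTGACC), was in 0 of the 165 windows and in 0.0874% of all windows. The half-site nearest the centre of the gained windows of ESRRB, RXRG and NR2E1 and of the lost windows of PPARD and NR2F1 is shown in capitals with its flanks (hg38), for the strongest changes outside promoters. The windows of the RXRA gain and of the RORA and NR4A2 losses held none.

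ESRRB gained, chr14:76294203-76294236, plus strand: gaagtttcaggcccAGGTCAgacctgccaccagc
RXRG gained, chr1:165434044-165434077, minus strand: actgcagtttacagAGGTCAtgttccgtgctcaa
NR2E1 gained, chr6:108204058-108204091, minus strand: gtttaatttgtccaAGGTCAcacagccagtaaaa
PPARD lost, chr6:35402734-35402767, minus strand: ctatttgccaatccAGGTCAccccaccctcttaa
NR2F1 lost, chr5:93661409-93661442, minus strand: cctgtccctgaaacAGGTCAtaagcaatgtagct

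The deposited enhancer lists held 54 of the 165 peaks. Of 9 peaks in enhancers listed for senescent cells alone, 4 were gained and 0 lost, against 45.7% gained and 2.1% lost of all H3K27ac peaks in these enhancers. Of 11 in enhancers listed for non-senescent cells alone, 0 were gained and 5 lost, against 2.07% and 45.7% of all peaks there. Enhancers listed for both states held 34, with 5 gained and 3 lost, against 11% and 12.5% of all peaks there. The 111 peaks in no listed enhancer held 11 gained and 11 lost, against 7.17% and 10.1%. In enhancers listed for 1 state alone, the peaks of nuclear receptor genes were thus called at about the rate of all such peaks. The lists were made from these H3K27ac libraries together with H3K4me1, so these directions are not independent of the fold changes. The shares of peaks in each list (20.6% in both, 5.45% senescent alone, 6.67% non-senescent alone) were close to those over all peaks (19.9%, 5.09% and 8.33%).

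The estrogen receptor genes are of interest because 4-OHT binds their products. ESR1, the alpha receptor, had no H3K27ac promoter peak and 2 intronic peaks, 289 and 318 kb downstream of the canonical start, the latter inside the overlapping gene SYNE1. The first went from 172.6 to 118.0 reads (log2 -0.55 ± 0.18, adjusted p = 0.0091), which is under the fold threshold, and the second from 145.6 to 117.3 reads (log2 -0.31 ± 0.18, adjusted p = 0.17). A promoter without a peak here is one below the calling limit and not one shown to be silent.

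ESR2, the beta receptor, had 6 H3K27ac peaks, of which 1 was called lost. That peak, in an intron at chr14:64219849-64221109 where ESR2 overlaps SYNE2, went from 68.0 to 39.9 reads (log2 -0.77 ± 0.30, adjusted p = 0.030). The ESR2 promoter peak at chr14:64336796-64340151, over an alternative start 44.1 kb upstream of the canonical one, had the highest mean count of the 6. It went from 743.8 to 504.3 reads (log2 -0.56 ± 0.10, adjusted p = 2.4e-07), just short of the fold threshold, with an interval of -0.76 to -0.36. Of the 8 peaks of ESR1 and ESR2, 6 had values below 0, of which 1 was called. This sign count was not tested, since neighbouring peaks of 1 gene are not independent. At a DESeq2 call, 0 of the 9 CTCF peaks of both genes were changed, and 1 had an unadjusted p under 0.05. PGR, the progesterone receptor gene and a known estrogen target, had no H3K27ac promoter peak and 2 upstream peaks with log2 fold changes of -0.035 ± 0.13 and -0.0021 ± 0.12.

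Among 10 known estrogen receptor targets, 6 had a promoter peak. CXCL12, a chemokine, was gained (log2 0.71 ± 0.080, adjusted p = 1.1e-17), AGR2, a folding enzyme of secretory cells, was lost (log2 -0.83 ± 0.19, adjusted p = 9.4e-05), and the other 4 were not called, TFF1 among them (log2 -0.16 ± 0.24). The median of the list was -0.12 against 0.038 over all genes.

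The genes whose products serve the receptors are set against the promoter background above, where 3.15% of genes were gained and 8.94% lost. Of 13 coactivators with a peak, PPARGC1A, the PGC-1α coactivator of mitochondrial genes, was lost (log2 -1.12 ± 0.24, adjusted p = 2.8e-05), and no other was called. Of 9 corepressors, TBL1X, a subunit of the corepressor complex, was lost (log2 -0.69 ± 0.12, adjusted p = 3.4e-08). Of 6 chaperones of steroid receptors, with log2 fold changes from -0.15 to 0.099, PTGES3, the co-chaperone p23, passed the adjusted p of the DESeq2 test (log2 -0.13 ± 0.054, adjusted p = 0.035) far under the fold threshold. The other 5 did not pass it, and none of the 6 was called.

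Of 24 genes that supply, carry or break down ligands, 12 had a promoter peak, 1 was gained and 3 were lost. The losses were DHRS3, which turns retinal back into retinol (log2 -1.40 ± 0.12, adjusted p = 5.1e-29), CYP27A1, a sterol hydroxylase (log2 -0.96 ± 0.16, adjusted p = 1.6e-08), and RBP4, the plasma carrier of retinol (log2 -0.63 ± 0.25, adjusted p = 0.029). ALDH1A2, which makes retinoic acid, was gained at a weak peak (log2 1.18 ± 0.35, adjusted p = 0.0031).

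The lists of target genes are given receptor by receptor. All 6 LXR targets had a promoter peak, with a median log2 fold change of 0.41 against 0.038 over all genes, and ABCA1, the cholesterol exporter, was called gained, from 366.4 to 913.4 reads (log2 1.32 ± 0.094, adjusted p = 3.4e-42). ABCG1 (log2 0.53 ± 0.063) and LPCAT3 (log2 0.54 ± 0.074) fell short of the fold threshold. The LXR genes themselves were not called. NR1H2 (log2 0.49 ± 0.091) passed the adjusted p but fell short of the fold threshold, and NR1H3 stood at 0.056 ± 0.095. Of 6 PPAR targets with a peak, CPT1A, which brings fatty acids into mitochondria, was gained (log2 0.88 ± 0.16, adjusted p = 4.8e-07), and the others were not called. The median log2 fold change over these 6 was 0.33. Of 6 glucocorticoid targets with a peak, the kinase gene SGK1 was lost (log2 -0.77 ± 0.31, adjusted p = 0.038), and the median over the 6 was -0.30. Of 7 retinoic acid targets, 2 had a peak and DHRS3, named above, was lost. Of 4 thyroid hormone targets, DIO1 alone had a peak (log2 0.36 ± 0.17) and was not called. Each gene counted once, 63 genes of these lists had a promoter peak, of which 4 were gained and 7 were lost, against 3.15% and 8.94% over all genes, a difference that was not tested.

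CTCF changed at few peaks of nuclear receptor genes. Of 157 peaks 2 were gained and 6 were lost, against 2.29% and 3.28% of all CTCF peaks, so the shares were close to the background. A further 24 had no adjusted p and stayed uncalled. When every peak's deposited p entered the adjustment, 6 were still lost, but a nearest peak of NR5A1 with a mean of 17.5 reads joined them (log2 -1.70 ± 0.51, adjusted p = 0.042) and the RARB loss left them (adjusted p = 0.21). The retinoic acid receptor genes RARA, RARB and RARG held 16 of the 157 peaks and 5 of the 8 called ones, a grouping made after the calls were seen and not tested. By the strongest promoter peak, 0 of 27 genes were gained by the DESeq2 test, with 0 at an unadjusted p under 0.05, and RARA was lost, against 0.491% and 4.61% of 9366 genes. The best match to the 12-base CTCF core motif within the central 400 bases of each called peak is shown in capitals (hg38). Every window yields a best match, so a match does not show that CTCF contacts DNA there.

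RARA gained, chr17:40303163-40303202, plus strand: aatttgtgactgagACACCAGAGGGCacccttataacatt
RARB gained, chr3:24683953-24683992, minus strand: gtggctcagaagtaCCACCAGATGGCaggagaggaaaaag
RARA lost, chr17:40317523-40317562, minus strand: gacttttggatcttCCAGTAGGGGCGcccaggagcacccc
RARB lost, chr3:25532942-25532981, plus strand: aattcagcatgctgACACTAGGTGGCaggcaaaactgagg
RARG lost, chr12:53211942-53211981, plus strand: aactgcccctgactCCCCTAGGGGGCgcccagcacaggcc
NR4A3 lost, chr9:99824870-99824909, plus strand: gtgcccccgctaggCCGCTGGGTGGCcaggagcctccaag
RORA lost, chr15:61167575-61167614, plus strand: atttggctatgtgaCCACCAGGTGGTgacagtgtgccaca
PPARA lost, chr22:46162486-46162525, minus strand: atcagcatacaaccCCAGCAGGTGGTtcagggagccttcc

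The match at the RARB gain was exact, those at the RARA gain and at the RARB, RARG, RORA and PPARA losses had 1 mismatch, and those at the RARA and NR4A3 losses had 2. Over all CTCF peaks 41.2% held a match with at most 1 mismatch in the same window, with 46.9% of gained and 42.1% of lost peaks.

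At RARA, the alpha receptor of retinoic acid, a peak 6.08 kb upstream and inside the neighbouring gene CDC6 (chr17:40302256-40303934) was gained, from 102.9 to 218.1 reads (log2 1.08 ± 0.18, adjusted p = 1.6e-06). A promoter peak at an internal start (chr17:40317311-40317845) was lost, from 64.6 to 30.9 reads (log2 -1.07 ± 0.31, adjusted p = 0.027). An H3K27ac peak 212 bp from the lost CTCF peak was lost too (log2 -0.88 ± 0.30, adjusted p = 0.00996). The same H3K27ac peak was the RARA peak nearest to the gained CTCF peak, 14.1 kb away. How often lost CTCF peaks lie near a lost H3K27ac peak over all genes was not counted.

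RARB, which had no H3K27ac peak, gained CTCF at a peak just upstream of the annotated gene and 744 kb from the canonical start (log2 0.71 ± 0.24, adjusted p = 0.064) and lost it at an intronic peak (log2 -0.86 ± 0.37, adjusted p = 0.18). RARG lost CTCF at a peak in a coding exon at chr12:53211408-53212521, from 88.8 to 48.0 reads (log2 -0.89 ± 0.26, adjusted p = 0.030), 8.31 kb from its lost H3K27ac peak. RORA lost CTCF in an intron (log2 -0.71 ± 0.25, adjusted p = 0.081), 6.07 kb from a lost H3K27ac peak. NR4A3 lost CTCF in an intron 2.89 kb from its start (log2 -1.24 ± 0.36, adjusted p = 0.027), and PPARA lost it in an intron at a mean of 27.6 reads (log2 -0.97 ± 0.39, adjusted p = 0.14). The H3K27ac peaks that overlap the last 2 were not called, at -0.81 ± 0.42 and 0.22 ± 0.064. After a trend of the fold change over peak GC content was removed, the RARB gain went to a log2 fold change of 0.48 and the PPARA loss to -0.84, and neither passed the adjusted p any longer (0.44 and 0.40).

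**Figure D5:**
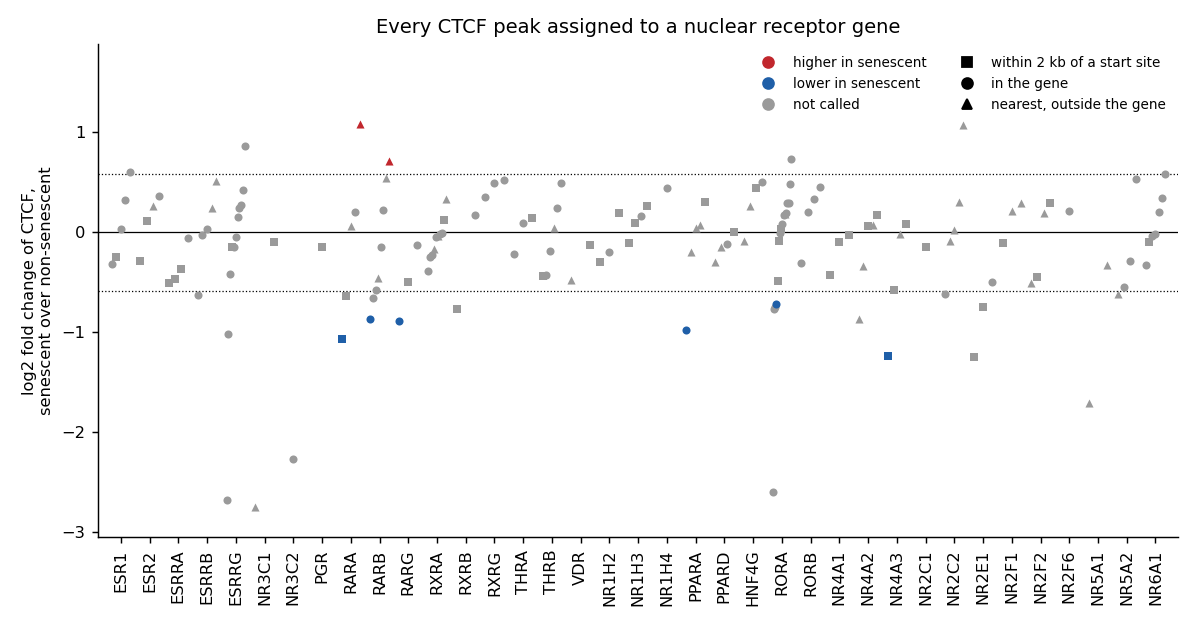
Log2 fold change of CTCF at each peak by gene, where colour marks the call and shape marks the position. The 2 gained peaks are at RARA and RARB, and the 4 grey points below -2 are uncalled peaks of ESRRG, NR3C1, NR3C2 and RORA with an SE of 1.155 to 2.14.

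The deposited list of regions with more Rb signal in senescent than in non-senescent libraries, given as positions with no values, held 6 near nuclear receptor genes. NR4A2 had 2 at its promoter, NR3C1 had 1 at its promoter, 421 bp from a start site, and NR4A3 had 1 inside the gene. Those nearest to ESRRG and HNF4G lay 66.5 and 60.0 kb away by the distance rule. The share of all genes with such a region was not counted, so these numbers have no background here. By the methods of the study the regions came from 2 libraries per state and a cutoff on the unadjusted p. The H3K27ac promoter peaks of NR4A2, NR3C1 and NR4A3 were not called, as given above for NR4A2. Those of NR3C1 (log2 0.25 ± 0.056) and NR4A3 (log2 -0.26 ± 0.075) passed the adjusted p but not the fold threshold.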

How the data were processed

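ChIP-seq libraries of EndoC-βH3 cells were sorted into groups using the antibody and state in their labels (3 and 3 for H3K27ac and CTCF, 2 and 2 for H3K4me1 and Rb, with an input for each, 40 libraries). The authors, by the methods of the study, aligned reads to hg38 and called H3K27ac, H3K4me1 and CTCF peaks against input and senescent Rb regions against non-senescent libraries. For H3K27ac and CTCF alone, the authors compared read counts in peaks with DESeq2. The deposited mean signal averages counts scaled by size factor over the libraries. Deposited log2 fold changes and SEs are senescent over non-senescent. The deposited p-values are the authors' Wald and Benjamini-Hochberg adjusted values, and 11972 CTCF peaks had no adjusted p-value. The deposited score is the Wald statistic and was not printed. The authors' enhancer and Rb lists hold positions only. Start coordinates are given as in the files, whose counting from 0 or 1 is not stated.

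No model was refitted, because the tables hold no values per library, and the depth of single libraries is therefore unknown. The sum of mean normalized counts was 19239499 (H3K27ac) and 6136424 (CTCF). Because of the size factors, a shift of a whole mark cannot be seen. The thresholds are those of the study. The study kept only CTCF peaks that hold a CTCF motif, and no such filter was applied here. Thresholds, peak assignment and motif searches were tested on simulated data. The level of each state was derived from the mean and the fold change for 3 and 3 libraries. Levels of peaks of different genes were compared per kb, while peaks within a gene were ranked by mean count, which is not scaled by width. Promoter sequences came from RefSeq and other sequences from hg38 (pysam 0.24.0), and figures were drawn with matplotlib 3.10.9 in Python 3.11.15.

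The members, the gene lists and the tests were chosen with earlier results of these data known. Named genes were members with a called promoter peak, every called CTCF peak, the 8 called H3K27ac peaks outside promoters with the smallest adjusted p in each direction, the 3 members with the most called peaks, ESR1 and ESR2, the highest promoter of each family, up to 4 called genes per list and INS. NR4A1, NR1H2, NR1H3, PGR, ABCG1, LPCAT3, TFF1, PTGES3 and NR5A1, other peaks of named genes and the markers were added after their values were seen. Of the gene lists, 2 genes are not reported here and were left out of the counts. Alternatives varied the fold and p thresholds, the tested null, the count filter, the GC trend, the promoter window and the assignment of peaks.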

Additional observations from a re-analysis of the deposited data

How the results depend on the processing

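No paired analysis was possible because the tables hold no values per library, and for the same reason no replicate could be left out. With the GC trend removed, no called peak turned direction. The other settings keep the fold change of each peak, so a turn was not possible in them. Shares over all peaks or genes are given above for the main thresholds alone, so counts under other settings have no background here. Beyond a fold change of 2, H3K27ac gains fell from 20 to 9 and losses from 19 to 7, promoter gains from 1 to 0 and losses from 3 to 1, and CTCF gains from 2 to 1 and losses from 6 to 2. Without a fold threshold the counts were 41 and 32 for H3K27ac peaks, 8 and 8 for promoters, 7 and 11 for CTCF peaks and 2 lost for CTCF promoters. Tested against a fold change of 1.5 itself, 4 and 3 H3K27ac peaks were called, and no promoter and no CTCF peak was (0 in each). At an adjusted p under 0.01, 13 H3K27ac gains were called. At an adjusted p under 0.05, CTCF had 1 gain and 3 losses. With a mean count of at least 50, CTCF losses fell to 2 and the loss at the RARA promoter was no longer counted (0), as with the canonical start alone (0). With the canonical start alone the median of the H3K27ac promoters was 0.16 in place of 0.054, and with the peak closest to it 5 promoters were lost. With the GC trend removed, CTCF gains fell to 1. Settings for ESR1 and ESR2 and for the lists were added after the data were seen. The single loss at ESR1 and ESR2 became 0 beyond a fold of 2, against a fold of 1.5 and at an adjusted p under 0.01, 3 without a fold threshold and 2 with the GC trend removed. For the list genes, 4 gained and 7 lost became 2 and 2 beyond a fold of 2, 19 and 15 without a fold threshold and 1 and 1 against a fold of 1.5. The causes of these shifts were not tested beyond the stricter or looser thresholds themselves. Low counts limit the weak peaks, such as those of NR5A2 and PPARA.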
